A study of Mus musculus with 12 samples.

Results

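Among the binding sites of 5 proteins mapped by chromatin immunoprecipitation and sequencing (ChIP-seq), 1366 regions were held by MyoD, by a MyoD chimera that carries the DNA-binding domain of NeuroD2, and by at least one of a pair of mutants of that chimera, but not by NeuroD2. They are called mutant-held regions here. The deposited sites of the 5 lists were pooled, sites that overlapped by at least 1 base were merged, and the regions were chosen by which lists contributed a site. They made up 2.27% of the 60136 merged regions of the series. List membership chose these regions, and each list has 1 value per site and no replicate, so the counts and values are descriptions and no test was made.

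The cells were P19, a mouse embryonal carcinoma line, transduced to express 1 protein each. Cells of 2 groups expressed a mutated chimera, MD(ND2bHLH)WC (here WC) or MD(ND2bHLH)WCS (here WCS). What the added letters stand for is not stated in the labels. The unmutated chimera is MD(ND2bHLH), in which the basic helix-loop-helix (bHLH) part of MyoD is that of NeuroD2. Native MyoD and native NeuroD2 were the parents, and untransduced P19 cells were the negative control. Each of these 6 groups had 2 libraries, 12 in all, each with its own antibody. MyoD antibodies 6196 and 6975 precipitated WC, WCS, the chimera and MyoD, NeuroD2 antibodies 1165 and 1240 precipitated NeuroD2, and antibodies 1240 and 6975 were used on untransduced cells. The labels give all groups 1 protocol: infection with polybrene at 8 µg/ml, a change of medium after 24 h, neuronal medium after 48 h, and fixation in 1% formaldehyde for 11 min. The 2 libraries of a transduced group point to 1 list of sites, and no list of untransduced cells was analysed here. The series asks whether the choice of binding sites sets the lineage that a bHLH factor directs.

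MyoD drives skeletal muscle differentiation, and NeuroD2 drives neuronal differentiation. Both pair with E proteins through their bHLH domains and bind E-boxes, short sites with the letters CANNTG, and they differ in the central bases they favour. MyoD can also bind beside Pbx and Meis homeodomain proteins, through residues outside its bHLH domain. A region held by MyoD and the chimera but not by NeuroD2 is therefore one where a protein with the bHLH of NeuroD2 and the remaining parts of MyoD was found at a site of MyoD. The mutant-held regions are those of this kind that were also listed after the mutations were added.

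Coordinates are 1-based in the mouse build mm9. No genome or gene annotation of mm9 was used here, so the regions carry no gene name, exon or motif, and no sequence is printed. The WC, WCS, chimera, MyoD and NeuroD2 lists held 27045, 22462, 14375, 24935 and 31458 sites. The authors' value of a site, whose unit no source used here names, lay above 5 in every list. It is used to rank sites within a list and, in the mutant lists, also as a minimum. Whether the same value means the same in different lists is unknown. Read depth is unknown. The WC, WCS and NeuroD2 lists reached down to sites of 54, 54 and 53 bp and held 403, 362 and 570 sites on chromosome X. The chimera and MyoD lists held no site under 100 bp and none on X, so the mutant-held regions are all autosomal. Filters, batches or antibodies shared by a set of lists cannot be told apart from the proteins.

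About 1 in 3 of the regions that MyoD and the chimera shared without NeuroD2 was also held by a mutant. Of 4009 such regions the mutants held 1366, or 34.1% (95% exact Clopper-Pearson interval 32.6 to 35.6%), and 2643 were held by MyoD and the chimera alone. Over all merged regions the share held by at least one mutant was 51.0%, and over the regions without NeuroD2 that MyoD or the chimera held it was 15.8%. WC held 1162 of the 4009, or 29.0% (27.6 to 30.4%), against a background of 44.5% of all merged regions. WCS held 711, or 17.7% (16.6 to 18.95%), against a background of 36.8%. Intervals here and below cover counting error over regions, which are not replicates, and not the spread between cultures.

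The share differed with which other lists held the region. Where the chimera was present without MyoD and NeuroD2, the mutants held 1011 of 2983 regions, or 33.9% (32.2 to 35.6%), and this interval overlaps that of the regions with MyoD. Where MyoD was present without the chimera and NeuroD2, they held 990 of 14361, or 6.89% (6.48 to 7.32%). With NeuroD2 present as well as MyoD and the chimera they held 3934 of 4186, or 94.0% (93.2 to 94.7%). With NeuroD2 and the chimera but no MyoD they held 2897 of 3097, or 93.5% (92.6 to 94.4%), and with NeuroD2 and MyoD but no chimera 1575 of 2169, or 72.6% (70.7 to 74.5%). The share among the 4009 MyoD and chimera regions without NeuroD2 thus lay between that of MyoD regions without the chimera and those of the classes with NeuroD2, and close to that of chimera regions with no MyoD site.

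**Figure D1:**
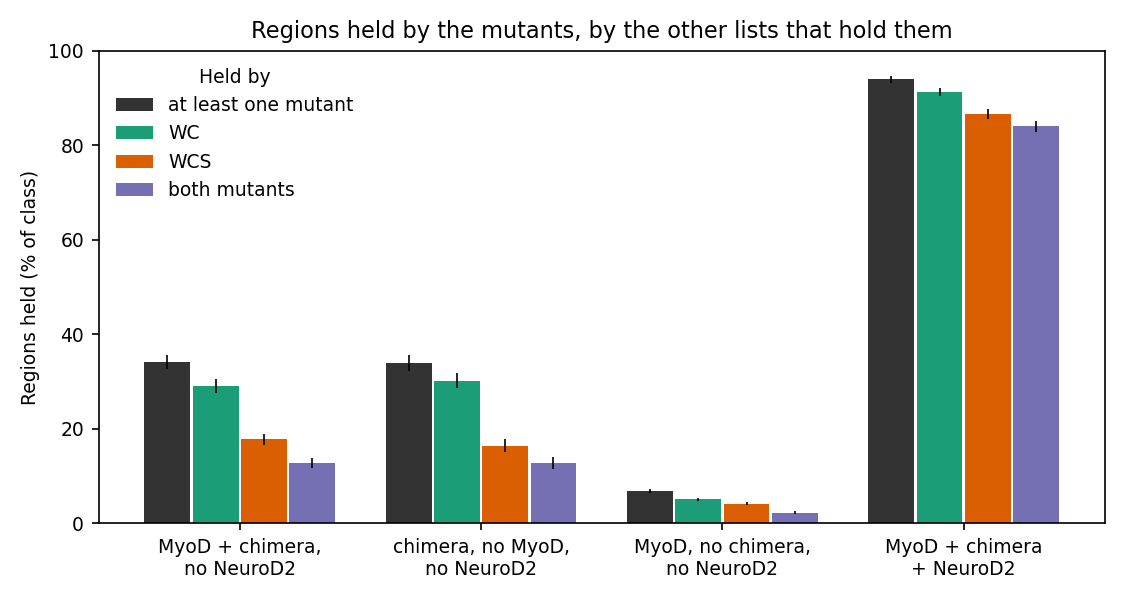
Share of merged regions (%) held by at least one mutant, by WC, by WCS and by both, in 4 classes of region set by the MyoD, chimera and NeuroD2 lists, with 95% exact intervals as bars. The share held by at least one mutant is 34.1% for MyoD and chimera regions without NeuroD2, 33.9% for chimera regions without both parents, 6.89% for MyoD regions without the chimera and NeuroD2, and 94.0% where NeuroD2 is also present.

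The share went with the chimera's value and much less with MyoD's. The 4009 regions were divided into 5 equal bins by their value in the chimera list. From bin 1, the lowest, to bin 5, the share held by at least one mutant was 22.6%, 26.9%, 31.6%, 36.7% and 52.6%. The WC share had the steeper gradient, with 16.8% in bin 1 and 49.4% in bin 5. WCS held 14.2% in bin 1, 21.6% in bin 4 and 19.7% in bin 5, so the bins of highest value did not differ for WCS beyond their intervals (18.8 to 24.6% in bin 4 and 17.0 to 22.6% in bin 5). With bins by MyoD value instead, at least one mutant held 31.4% in bin 1 and 39.2% in bin 5. WC held 25.9% in bin 1 and 35.3% in bin 5, and WCS held 18.3% in bin 1 and 16.6% in bin 5, which is no difference beyond the intervals.

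**Figure D2:**
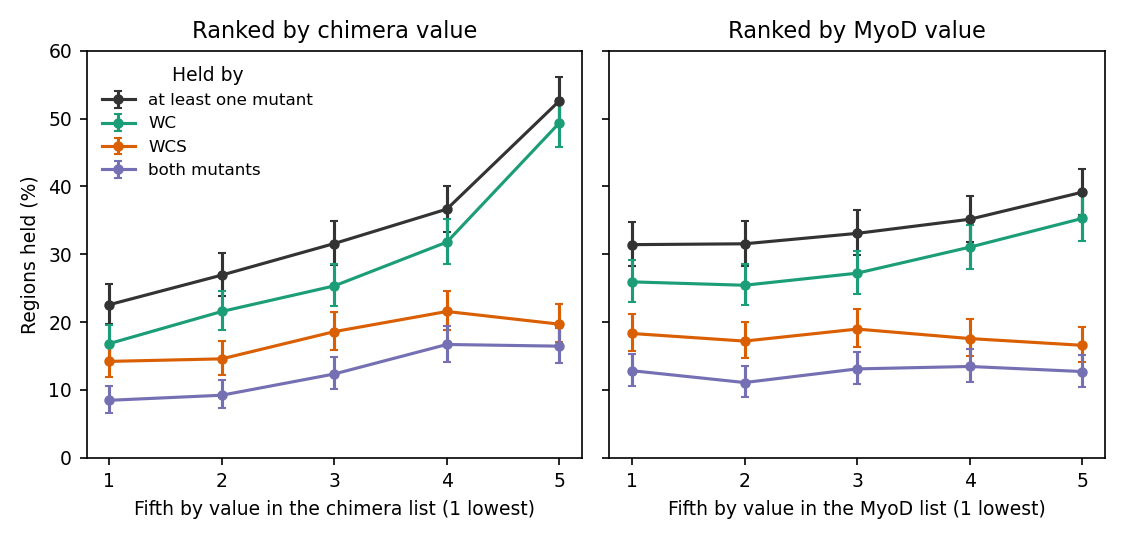
Share of the 4009 MyoD and chimera regions without NeuroD2 that the mutants held (%), in 5 equal bins by value in the chimera list (left) and in the MyoD list (right), with 95% exact intervals. By chimera value the WC share is 16.8% in bin 1 and 49.4% in bin 5 and the WCS share 14.2% and 19.7%, while by MyoD value the WCS share is 18.3% and 16.6%.

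Both values were then used at once, with the regions in 3 equal bins by each. Among regions of the lowest MyoD bin, at least one mutant held 22.0% of those in the lowest chimera bin and 47.7% of those in the highest. In the highest MyoD bin these shares were 23.7% and 47.5%. At a given chimera bin, therefore, the shares in the lowest and the highest MyoD bins lay within 5 percentage points of each other, with overlapping intervals. In the middle MyoD bin the share was 26.7% in the lowest chimera bin and 40.7% (35.6 to 45.9%) in the highest. The latter share was below those of both other MyoD bins, with overlapping intervals.

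The classes were also set side by side at like values, with bins drawn over a whole list. In the highest of 5 bins of the chimera list, from 19.02 upward, at least one mutant held 53.3% of 750 regions with MyoD (49.7 to 57.0%) and 52.5% of 162 regions without MyoD (44.5 to 60.4%), all without NeuroD2. In the lowest bin, up to 6.44, it held 22.1% of 760 regions with MyoD (19.2 to 25.2%) and 28.8% of 973 without (25.9 to 31.7%). The presence of a MyoD site thus went with a lower share in bin 1, with intervals apart. The share with MyoD was also the lower one in bins 2 to 4, where the intervals overlapped. It was 26.9% with MyoD and 29.7% without in bin 2, 31.9% and 36.8% in bin 3, and 37.5% and 42.5% in bin 4. In bin 5 the shares did not differ beyond their intervals. The lower share was that of WC, which held 16.3% of regions with MyoD and 24.7% of those without in bin 1, 21.4% and 26.0% in bin 2, 25.7% and 32.3% in bin 3, and 32.7% and 40.2% in bin 4. The intervals of these WC shares were apart in bin 1 and overlapped in bins 2 to 4. WCS held 13.8% with MyoD and 13.5% without in bin 1. The presence of a chimera site went with a far higher share at like MyoD values. In the highest bin of the MyoD list, from 24.2 upward, a mutant held 37.8% of 1467 regions with the chimera and 9.07% of 1378 without it. In the lowest MyoD bin the shares were 30.7% of 371 regions with it and 4.95% of 3760 without it. The WC, WCS, chimera and MyoD lists share both antibodies, and the NeuroD2 group had others. Absence from the NeuroD2 list therefore cannot be told apart from the change of antibody.

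WC alone held the largest part of the mutant-held regions. WC without WCS held 655 of the 1366, or 48.0% (45.3 to 50.6%), both mutants held 507, or 37.1% (34.5 to 39.7%), and WCS without WC held 204, or 14.9% (13.1 to 16.9%). Of the 711 regions with WCS, 71.3% were also in the WC list (67.8 to 74.6%), and of the 1162 with WC, 43.6% were in the WCS list (40.8 to 46.5%). Among MyoD and chimera regions without NeuroD2 that WC lacked, 7.17% of 2847 were in the WCS list. Other classes without NeuroD2 had similar shares of their WC regions in the WCS list. These were 42.1% of 900 with the chimera and no MyoD, and 44.6% of 726 with MyoD and no chimera. Of their WCS regions, 77.3% of 490 and 55.1% of 588 were in the WC list. An overlap of this size was thus not particular to the mutant-held regions. Where NeuroD2 was present too, the mutants overlapped far more: 92.0% of 3822 regions with WC were also in the WCS list and 96.9% of 3627 regions with WCS in the WC list.

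The 3 patterns differed in value. Regions of WC without WCS had a median of 13.6 in the chimera list and 21.7 in the MyoD list. Regions of both mutants had 11.4 and 17.2. Regions of WCS without WC had 8.51 and 14.6, and their chimera median equalled the 8.51 of regions held by MyoD and the chimera alone. Their WCS sites were weak too, with a median of 6.21 and a highest value of 16.6, and 111 of the 204, or 54.4%, stood among the lowest 20% of the WCS list. The WCS sites of regions held by both mutants had a median of 8.54.

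By median rank the WC sites at these regions lay a little below the middle of their list and the WCS sites further below. The MyoD sites were of high rank. The 1162 WC sites had a median value of 9.41 (quartiles 6.90 and 15.3), against 10.5 for the whole WC list. For the 711 WCS sites the median was 7.72 (6.05 and 10.8), against 10.0 for the whole WCS list. The chimera sites had a median of 11.5 (7.77 and 21.8), against 9.49 for the chimera list, and the MyoD sites had 18.8 (9.97 and 38.2), against 10.7 for the MyoD list. As percentiles within their lists these medians were 43.5 for WC, 34.6 for WCS, 60.8 for the chimera and 72.7 for MyoD. Lists differ in length and cut, so a difference between percentiles is no measure of a change in binding.

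Compared with regions of MyoD and the chimera alone, the mutant-held regions had the higher chimera and MyoD values. The chimera median was 11.5 in mutant-held regions and 8.51 in regions of MyoD and the chimera alone, and the MyoD medians were 18.8 and 16.5. In the chimera list 400 mutant-held regions, or 29.3%, stood among the highest 20% of sites, against 350, or 13.2%, of the regions of MyoD and the chimera alone. Regions in all 5 lists had still higher medians, 25.5 for WC, 20.6 for WCS, 15.9 for the chimera and 20.9 for MyoD. The largest gap to them was in the mutant lists: 12.9% of the WC sites of mutant-held regions stood among the highest 20% of the WC list, against 51.9% for regions of all 5 lists, and for WCS 4.64% against 47.1%.

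**Figure D3:**
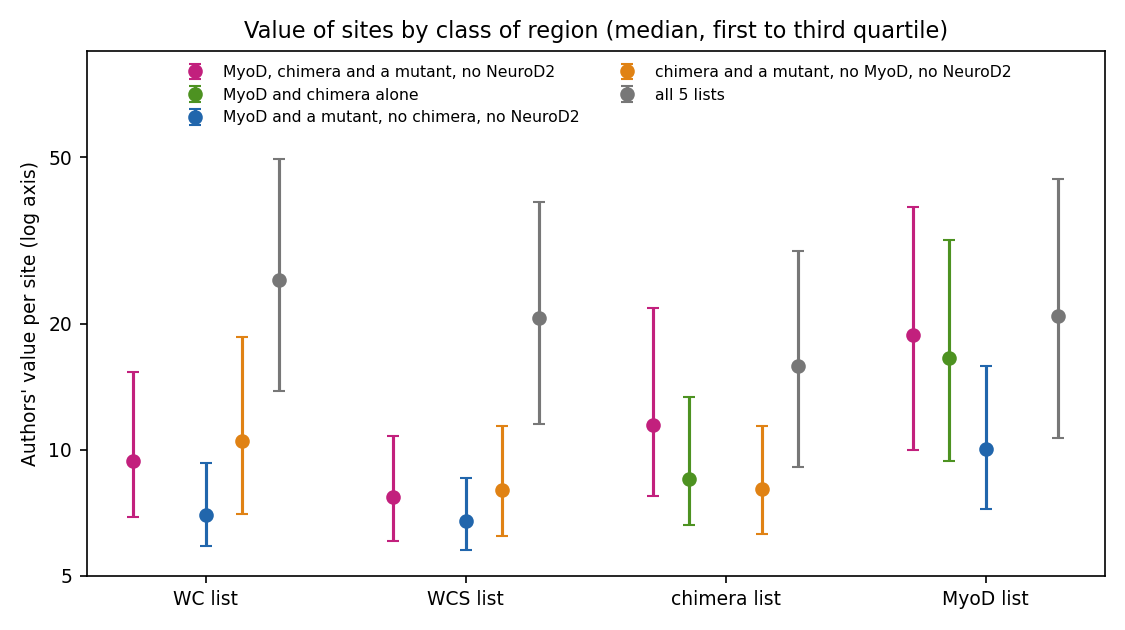
Authors' value per site (log axis) in the WC, WCS, chimera and MyoD lists for 5 classes of region, as the median (point) with quartiles (bars). Mutant-held regions have medians of 9.41 in the WC list and 7.72 in the WCS list, below the 25.5 and 20.6 of regions in all 5 lists, while their MyoD median of 18.8 is near the 20.9 of those regions.

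The WCS sites of the mutant-held regions lay near the lower limit of their list more often than the list as a whole, and the WC sites did not. The lowest 20% of the WC list held 20.9% of the WC sites, and the lowest 20% of the WCS list held 30.9% of the WCS sites. With a minimum value of 6 in place of 5, 1171 of the 1366 still had a mutant site. A minimum of 10 left 617, of which 142 had both mutants, and a minimum of 20 left 217, of which 23 had both. With 50 or more, 38 regions had a WC site and 1 had a WCS site. Within the mutant-held regions the values of WC and WCS had a Spearman correlation of 0.29 over 507 regions, against 0.79 over the 3515 regions of all 5 lists. For WC and the chimera it was 0.30 over 1162 regions, against 0.51 over 3515, and for WC and MyoD it was 0.07, against 0.12. The values also spanned a narrower range in regions of both mutants. Their WC quartiles were 7.24 and 15.9, against 13.8 and 49.5 in regions of all 5 lists, and their WCS quartiles 6.72 and 12.2, against 11.5 and 39.0. A narrow range can itself lower a correlation, and this was not tested. The points of a pair share the region and its width, so these are descriptions.

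A few regions had high values in every list that held them. Regions of both mutants were ordered by their lowest percentile over the 4 lists. The first lay on chromosome 10 from 77204214 to 77205519, with values of 30.9 in WC, 35.2 in WCS, 38.4 in the chimera and 33.6 in MyoD. The next, on chromosome 17 from 88260822 to 88261363, had 81.0 in WC, 29.3 in WCS, 67.7 in the chimera and 28.2 in MyoD. The third, on chromosome 13 from 97429932 to 97430535, had 34.9 in WC, 49.5 in WCS, 19.3 in the chimera and 33.8 in MyoD. In these 3 regions every site stood among the highest 20% of its list, and the lowest percentile was 85.7 in the first, 83.5 in the second and 80.3 in the third.

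A further pair also kept every site in that top part. The region on chromosome 6 from 85181342 to 85182727 had values of 35.3 in WC, 22.5 in WCS, 56.5 in the chimera and 33.0 in MyoD. That on chromosome 7 from 149482130 to 149482746 had 41.2 in WC, 22.3 in WCS, 44.9 in the chimera and 42.5 in MyoD. Their lowest percentile was 80.2 and 80.03, and the remaining 3 of the 8 leading regions came just under 80. On chromosome 15 from 11391375 to 11391838 the values were 24.2 in WC, 41.3 in WCS, 54.9 in the chimera and 94.1 in MyoD. Chromosome 17 from 7501105 to 7502083 had the highest WC value of all mutant-held regions, 153, with 38.6 in WCS, 24.2 in the chimera and 23.6 in MyoD. Chromosome 2 from 160992206 to 160992822 had the highest WCS value, 57.5, with 28.0 in WC, 18.6 in the chimera and 35.7 in MyoD.

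Leading regions of WC without WCS stood higher by this measure, which here takes the lowest of 3 percentiles and not of 4. The first was chromosome 7 from 129310620 to 129311419, with 112 in WC, 73.1 in the chimera and 77.2 in MyoD. The next was chromosome 4 from 44646431 to 44647053, with 73.9 in WC, 86.9 in the chimera and 101 in MyoD. Chromosome 6 from 115073011 to 115073784 had 51.5 in WC, the highest chimera value of the mutant-held regions, 256, and an infinite value in MyoD. The lowest percentile of these 3 regions was 96.8, 96.7 and 93.5, and the WCS list had no site in them. Chromosome 1 from 72997961 to 72998847 had 49.4 in WC, 56.5 in the chimera and 102 in MyoD. Chromosome 15 from 37709900 to 37710582 had 47.5 in WC, 69.4 in the chimera and 174 in MyoD, and the nearest NeuroD2 site was 125118 bases away.

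Regions of WCS without WC were modest even at their best. The leading one, on chromosome 2 from 25953288 to 25953713, had 16.6 in WCS, 12.4 in the chimera and 32.3 in MyoD. Chromosome 1 from 167128905 to 167129460 had 13.3 in WCS, 49.5 in the chimera and 23.5 in MyoD. In both the lowest percentile was near 64, at 63.96 and 63.2. The next was chromosome 10 from 60820117 to 60821203, with 10.8 in WCS, 11.0 in the chimera and 30.3 in MyoD. Those after it had WCS values of 10.3, on chromosome 17 from 71443830 to 71444535, and of 10.6, on chromosome 11 from 20672605 to 20673091. No region of this pattern reached the highest 20% of the WCS list.

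Mutant values varied widely among the 4 regions that led by MyoD or chimera value. In the MyoD list 7 mutant-held regions tied at an infinite value, and the 3 with the widest MyoD sites were taken. One of them is the region on chromosome 6 from 115073011 described above, with 51.5 in WC and no WCS site. Chromosome 15 from 102999978 to 103001018 had 13.0 in WC, 5.51 in WCS, 208 in the chimera and an infinite value in MyoD. On chromosome 8 from 8521463 to 8522242 the values were 17.4 in WC, 5.03 in WCS, 213 in the chimera and 182 in MyoD. On chromosome 11 from 77275684 to 77276792 they were 5.91 in WC, 153 in the chimera and infinite in MyoD, with no WCS site. The WC values of 13.0 and 17.4 were above the WC list median of 10.5, and both WCS values were near the foot of the WCS list. Among regions chosen for a high mutant value, chromosome 15 from 35996353 to 35996875 had 115 in WC, 26.4 in WCS and 74.3 in the chimera but 5.83 in MyoD. Chromosome 10 from 20821686 to 20822332, where the WCS value ranked number 3, had 18.2 in WC, 47.6 in WCS, 8.75 in the chimera and 9.97 in MyoD.

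Sites of a region overlap largely by construction, because regions were made by merging overlapping sites. The common bases are therefore given as a description only. Of the 1366 regions 1338, or 98.0%, had bases common to every list that held them, and this common core had a median of 271 bases. Centres of WC and WCS sites lay a median of 22.0 bases apart over 507 regions, and centres of chimera and MyoD sites 28.0 bases apart over 1366. Distances across these pairs were larger: 38.0 bases for WC and MyoD, 45.5 for WCS and MyoD, 44.0 for WC and the chimera, and 51.0 for WCS and the chimera. Regions of all 5 lists showed the same division, with medians of 20.5 for WC and WCS, 33.5 for the chimera and MyoD and 46.0 to 48.5 across. There the centres of WC and NeuroD2 lay 32.5 bases apart and those of WCS and NeuroD2 31.5, against 41.0 for NeuroD2 and MyoD, although NeuroD2 was precipitated with other antibodies. The close pairs are also those whose lists agree on chromosome X and short sites, so a shared processing of those lists and the proteins themselves cannot be told apart.

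**Figure D4:**
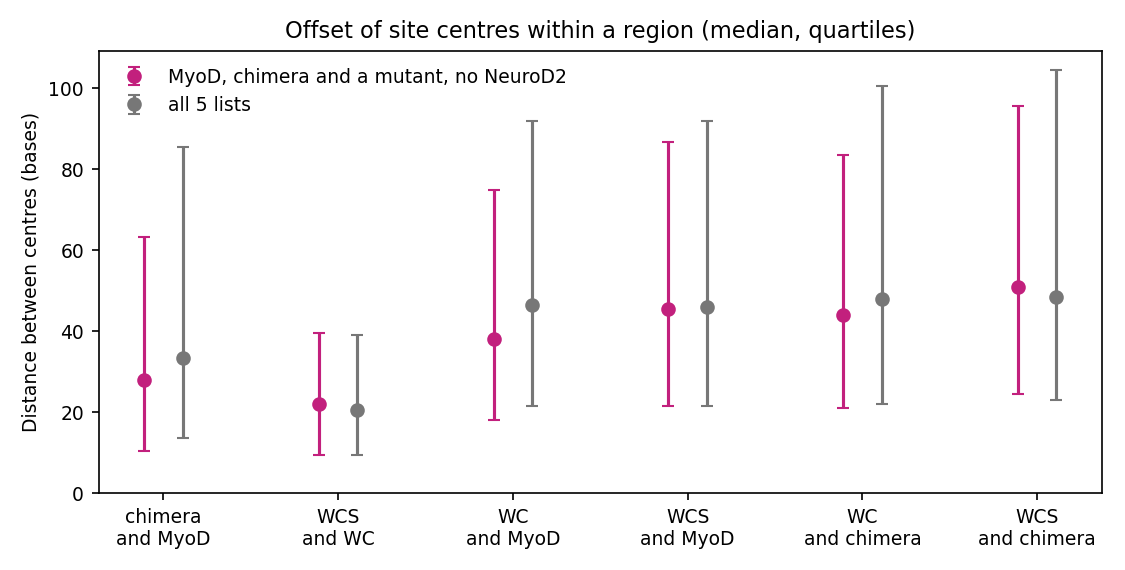
Distance in bases between the centres of 2 sites in the same region, as the median (point) with quartiles (bars), for mutant-held regions and for regions of all 5 lists. WCS and WC lie a median of 22.0 bases apart and the chimera and MyoD 28.0 in mutant-held regions, below the 38.0 to 51.0 of the 4 pairs that set a mutant against MyoD or the chimera.

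Mutant sites were the narrower ones, as they were over the whole lists. The median width of all sites was 349 bp in WC, 329 bp in WCS, 431 bp in the chimera and 358 bp in MyoD. In mutant-held regions the median width was 332 bp in WC, 287 bp in WCS, 439 bp in the chimera and 386 bp in MyoD. The WC site was narrower than the chimera site in 951 of 1162 regions, or 81.8%, and the WCS site in 645 of 711, or 90.7%. In regions of the chimera and a mutant without MyoD and NeuroD2 these shares were 66.4% and 82.0%. In regions of all 5 lists they were 61.2% and 69.8%, with median widths of 451 bp in WC, 418 bp in WCS, 505 bp in the chimera and 413 bp in MyoD. Merged regions had a median width of 490 bp where a mutant held them and of 454 bp where MyoD and the chimera were alone. Most of the 1366 regions had a single site of each list, and 17 had more than 1 MyoD site. The region with the most, chromosome 7 from 53631789 to 53632768, merged 7 sites, and chromosome 6 from 85181342 to 85182727 and chromosome 5 from 115886163 to 115887525 merged 6 each.

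The median distance to NeuroD2 was slightly smaller for mutant-held regions than for regions of MyoD and the chimera alone. The shares with a NeuroD2 site nearby did not differ beyond their intervals. The nearest NeuroD2 site was a median of 14527 bases away from the mutant-held regions and 17340 bases away from those of MyoD and the chimera alone. It lay within 10 kb of 551 mutant-held regions, or 40.3% (37.7 to 43.0%), and of 977, or 37.0% (35.1 to 38.8%), of the others. Within 1 kb the shares were 8.71% and 7.15%, and within 50 kb they were 78.7% and 78.5%. The intervals overlapped at each distance, which does not show that the shares are equal. By pattern, the share within 10 kb was 37.3% for regions of both mutants, 42.3% for WC without WCS and 41.7% for WCS without WC. Windows of 100 kb with at least 10 NeuroD2 sites held 42 mutant-held regions, or 3.07%, against 1.93% of the regions of MyoD and the chimera alone and 9.02% of regions in all 5 lists.

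The rule admits any region that no NeuroD2 site overlaps, however near it lies. Just inside it was chromosome 10 from 44796005 to 44796868, only 29 bases from a NeuroD2 site, with 25.2 in WC, 41.0 in the chimera and 193 in MyoD. Next came chromosome 8 from 19922921 to 19923503, at 32 bases, with 16.3 in WC, 25.2 in WCS, 12.4 in the chimera and 10.3 in MyoD. Chromosome 5 from 112252278 to 112252829 was 49 bases away. The region on chromosome 8 lies in a window of 100 kb with 42 WC, 47 WCS, 7 chimera, 3 MyoD and 74 NeuroD2 sites. How uniquely reads map there was not tested. Outside the rule, regions of MyoD, the chimera and a mutant were ordered by how few bases their NeuroD2 site shared with another site. The shortest overlap was 160 bases, in a region of 381 bases on chromosome 1 from 4792602 to 4792982. Then came 163 bases in a region of 617 bases on chromosome 2 from 70746204 to 70746820. The third was 174 bases in a region of 420 bases on chromosome 16 from 93746760 to 93747179. These overlaps were far above the minimum of 1 base, so the regions were not close to the limit of the rule. Their NeuroD2 values of 5.53, 6.17 and 5.03 were near the lower limit of that list. At the other end, the mutant-held region farthest from NeuroD2 lay on chromosome 2 from 95289174 to 95289522, 1049957 bases from the nearest site and with values of 5.63 in WC, 7.10 in the chimera and 5.04 in MyoD. The next farthest were chromosome 12 from 11228257 to 11228683, at 954319 bases, and chromosome 7 from 67760741 to 67761090, at 753125 bases.

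Most mutant-held regions were alone in their window, apart from a few clusters. Of the 1246 windows of 100 kb that held any, 1141 held 1, 95 held 2 and 10 held 3 or more. The window from 77200001 on chromosome 10 held the most, 6, and all 6 were in both mutant lists. No region of MyoD and the chimera alone lay in it. Across its 18 regions WC held 16, WCS 16, the chimera 15, MyoD 11 and NeuroD2 4. The window of 1 Mb around it, from 77000001, held 9 mutant-held regions, again all in both mutant lists, and 3 regions of MyoD and the chimera alone. Over the series 37.1% of mutant-held regions were in both lists, so this cluster stood apart from the rest, as a description of the window that the naming rule chose.

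The values in the chromosome 10 cluster were mostly moderate. Beside the leading region named above, the region from 77221596 to 77222455 had 6.56 in WC, 10.4 in WCS, 11.9 in the chimera and 14.4 in MyoD. That from 77250616 to 77251041 had 14.0 in WC, 19.02 in WCS, 17.4 in the chimera and 15.1 in MyoD. A close pair followed. The region from 77277339 to 77277806 had 9.74 in WC, 8.74 in WCS, 21.3 in the chimera and 32.6 in MyoD, and that from 77277860 to 77278297 had 10.1 in WC, 14.0 in WCS, 13.2 in the chimera and 6.91 in MyoD. The last, from 77298660 to 77299499, had 9.32 in WC, 7.81 in WCS, 7.56 in the chimera and 16.5 in MyoD. The WC and WCS sites of the leading region and of the one from 77250616 were the highest of the 6 in both mutant lists.

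The second cluster lay on chromosome 7 from 149400001, with 5 mutant-held regions, 4 of them in both mutant lists, and none of MyoD and the chimera alone. Its MyoD values ran from 14.8 to 42.5, and it includes the leading region named above. The other windows of 100 kb with 3 lay on chromosomes 2 and 8, with 2 windows each, and on chromosomes 4, 11, 12 and 19. Among windows of 1 Mb the next were chromosome 17 from 56000001, with 8, and chromosomes 2 from 29000001, 6 from 127000001 and 7 from 149000001, with 7 each. These 4 also held 7, 4, 5 and 5 regions of MyoD and the chimera alone.

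Around a mutant-held region other sites were only slightly more frequent than around a region of MyoD and the chimera alone. Within 50 kb on either side there were 2.77 ± 3.30 other WC sites around mutant-held regions and 2.38 ± 2.46 around those of MyoD and the chimera alone (SD over 1366 and 2643 regions). For WCS the means were 2.35 ± 3.10 and 2.01 ± 2.20, for the chimera 1.78 ± 1.95 and 1.61 ± 1.78, for MyoD 2.98 ± 2.70 and 2.87 ± 2.67, and for NeuroD2 2.94 ± 4.10 and 2.59 ± 2.64. All 5 differences were small against the spread between regions. Regions of all 5 lists had more neighbours, with 3.52 ± 3.63 WC sites.

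The share of mutant-held regions was near that of the whole on most chromosomes. Over 19 autosomes it ran from 23.5% to 43.0% of the MyoD and chimera regions without NeuroD2, with a median of 33.6%. The highest share was on chromosome 10, with 96 of 223 regions, or 43.0% (36.5 to 49.8%), where 38 were in both mutant lists. The lowest was on chromosome 14, with 28 of 119, or 23.5% (16.2 to 32.2%), and chromosome 3 was next, with 41 of 166, or 24.7% (18.3 to 32.0%). For the other 16 chromosomes the interval included the share of the whole, 34.1%.

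**Figure D5:**
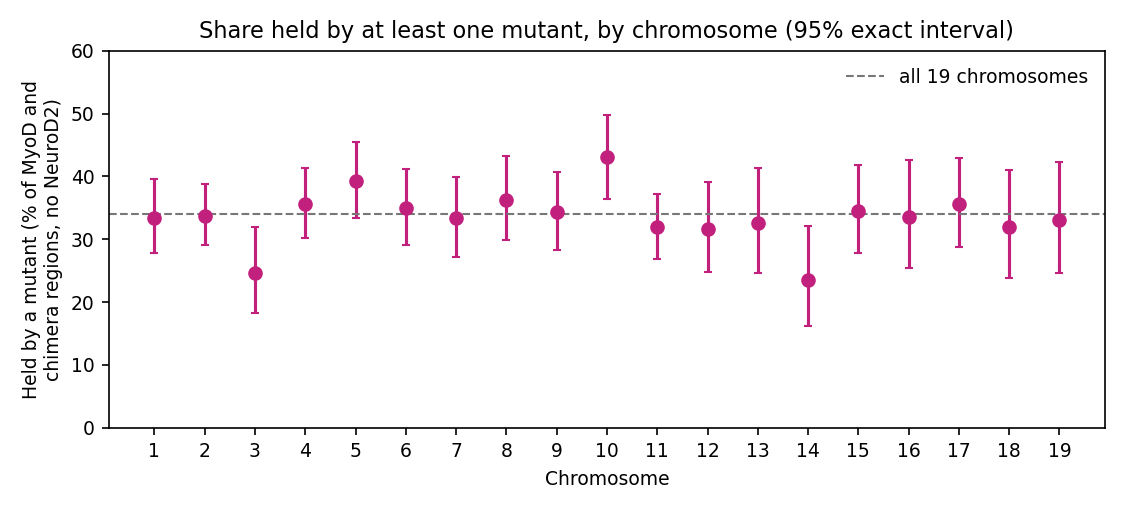
Share of the MyoD and chimera regions without NeuroD2 that at least one mutant held (%), by chromosome, with 95% exact intervals and the share over 19 autosomes as a dashed line at 34.1%. Chromosome 10 lies above the line, at 43.0%, and chromosomes 14 and 3 lie below it, at 23.5% and 24.7%.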

How the data were processed

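The data were 5 lists of binding sites, 1 per transduced group of 2 libraries. Per the submitters' processing notes, CASAVA 1.8.2, BWA 0.7.5 and the build mm9 were used. No source used here gives the peak caller, its background, filters or any pooling of libraries. The deposited score of each site, the authors' value, has no named unit. It behaves like a −log10 p-value and served to rank sites within a list, with ties at infinity ordered by width. In the mutant lists it also served as a minimum.

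Sites that shared at least 1 base were merged over all lists. A region took its best site of each list. Regions, comparisons and lists were chosen with earlier results of these data known. Shares have exact Clopper-Pearson intervals (95%) that cover counting error only. Windows were 100 kb and 1 Mb, and neighbours were counted within 50 kb.

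Named regions follow a rule: leading regions of each pattern by lowest percentile, the 3 highest values of each list, the most merged sites, the nearest and farthest from NeuroD2, the fullest windows and the extreme chromosomes. Results on E-boxes, Pbx and Meis motifs and genes need a genome of mm9 and were not computed. The linking was tested on simulated regions that lay far apart and had nearly aligned sites. That check cannot show how the linking treats regions close together or sites with offset centres. Merging and counts used pandas 2.3.3 and numpy 2.4.6 under Python 3.11.15, intervals used scipy 1.17.1, and plots used matplotlib 3.10.9.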

Additional observations from a re-analysis of the deposited data

How the results depend on the processing

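Of 9 results under 9 other settings, and 4 of them under 2 settings chosen after seeing the data (a higher mutant minimum and a shorter WC list), 55 of 89 values stayed within the interval of the reported value, or within 1.5 times for the count, and 34 moved beyond it. The number of mutant-held regions was 698 when each list kept its 50% of highest value and 617 with mutant values of at least 10. The share held by a mutant among MyoD and chimera regions without NeuroD2 was 32.0% with centres within 100 bases, 31.4% with the 50% of highest value, 30.3% with lists of equal length, 15.4% with mutant values of at least 10 and 30.7% with the WC list shortened to that of WCS. For MyoD regions without the chimera and NeuroD2 it was 6.41%, 5.46%, 5.03%, 1.49% and 5.77% in the same order, and 7.65% with sites within 500 bases joined, so in each of these settings the share with the chimera stayed above the share without it. The share in both mutant lists was 42.0% with equal length and 23.0% with mutant values of at least 10. Median width was 464 bp with centres within 100 bases, 563.5 bp with the 50% of highest value, 541 bp with equal length, 521 bp with sites joined and 386 bp where MyoD sites replaced merged regions. With the 50% of highest value and with equal length the median MyoD value was 31.0 and 24.2 and the median chimera value 20.1 and 13.96, as both settings remove low values. A NeuroD2 site lay within 10 kb of 43.7% of mutant-held regions and 41.5% of those of MyoD and the chimera alone with the rule on centres, 25.6% and 23.5% with the 50% of highest value, 24.2% and 22.1% with equal length, 36.9% and 34.1% with sites joined, and 34.6% and 32.1% with NeuroD2 within 1 kb also barred. The cause of the moves on centres was not tested. A limit on widths up to 2000 bases and an overlap of 50% of the shorter site moved no result beyond its interval. Restricting to autosomes could change none of the 9, because the MyoD list has no site on chromosome X, so 9 of the 55 unmoved values say nothing about stability. No paired analysis was possible because each group has 1 list, and leaving out a library was not possible for the same reason. Read depth is unknown.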
